A study of Homo sapiens with 18 samples.

Results

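TOP2A and TOP2B peaks and sites were examined in the outermost megabase of human chromosome arms, where each arm runs into the telomere. The build is hg19. A MACS peak or SISSRs site (MACS and SISSRs are programs that call enriched intervals and narrow binding sites) was a member if its midpoint lay in the first or last 1 Mb of chromosomes 1 to 22 or X. The last base of a chromosome was set at the furthest peak end found over all lists. The first megabase of chromosomes 13, 14, 15, 21 and 22, whose short arms are mostly unsequenced repeats, was left out and held 0 peaks and 0 sites in every list. This left 41 arm ends (18 of short p arms and 23 of long q arms), which cover 41 Mb, or 1.35% of the length used. They held 23024 of 1399117 MACS peaks and 24791 of 1461166 SISSRs sites over the 12 lists of each kind.

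Chromatin came from KG-1, a line grown from a human myeloid leukaemia, and was crosslinked with 1% formaldehyde. The etoposide experiment has 2 libraries for each antibody after 1 h with the methanol vehicle and 2 after 1 h with 100 µM etoposide. The mitoxantrone experiment has 1 library for each antibody from untreated cells and 1 after 1 h with 0.5 µM mitoxantrone. Its values have no replicate check and no test. In both experiments every TOP2A library used 5 µg of antibody and every TOP2B library 4 µg. Enzyme and amount of antibody therefore cannot be told apart. All cells were of this 1 line, each library drew on pooled immunoprecipitations, the 6 inputs are not analysed here, and peak lists hold no marker expression against which the line could be checked.

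Type II topoisomerases cut both strands of a DNA duplex, pass another duplex through the gap and reseal it, which relieves supercoils and untangles chromosomes. TOP2A is the form of dividing cells, needed to separate sister chromatids, and TOP2B is present in dividing and resting cells and works largely at genes and chromatin loop anchors. Etoposide and mitoxantrone are poisons that hold the enzymes on cut DNA. The regions next to telomeres are a patchwork of gene-rich, GC-rich segments and of recently duplicated blocks that several chromosome ends share, so that short reads from the outermost part can match more than 1 place. Sources used here do not say how the authors treated such reads.

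The lists differ in length, from 35932 peaks (TOP2A etoposide replicate 1) to 294749 (TOP2B vehicle replicate 2) in the etoposide experiment and from 702 to 109429 in the mitoxantrone experiment. Few peaks recur: in the terminal megabases 3.99% of TOP2A vehicle, 2.36% of TOP2A etoposide, 4.80% of TOP2B vehicle and 0.953% of TOP2B etoposide peaks of the shorter list overlapped a peak of the other replicate by at least 1 bp. As shares of the longer list these were 3.69%, 0.414%, 1.98% and 0.580%. The overlap that the density and width of peaks alone would give was not computed, so these shares do not count reproducible peaks. Nothing in the labels says that replicates came from separate cultures, so a p-value here reflects how far these libraries scatter, and that scatter may be purely technical.

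Peaks were denser at arm ends than elsewhere in all 8 libraries of the etoposide experiment. For TOP2A the terminal megabases held 3936 and 4224 peaks (vehicle) and 551 and 3141 (etoposide), each for replicates 1 and 2. Their density was 1.36 and 1.27 times the mean of the list with the vehicle and 1.14 and 1.20 times with etoposide. For TOP2B they held 2000 and 4796 peaks (vehicle) and 1049 and 1723 (etoposide), at 1.29 and 1.20 times the mean (vehicle) and 1.11 and 1.25 times (etoposide). No list of this experiment lay below its mean. Averaged over the 8 libraries the density was 1.22 times the mean (log2 0.29 ± 0.095 SD, n = 8, higher in 8 of 8). The two-sided exact permutation test over libraries gave p = 0.00781, the smallest that 8 libraries can give, and an adjusted p of 0.0312 over 12 tests. The list mean spreads peaks over 3035 Mb, which includes stretches without a peak or site in any list. Taken over the 2888 bins of 1 Mb that hold one, the mean gave a smaller excess, log2 0.22 (exact permutation p = 0.00781, n = 8, adjusted p = 0.0312). Other ratios to the list mean given here use the 3035 Mb. By their titles, TOP2A and TOP2B libraries of 1 treatment and replicate number go with the same input, and nothing says that their chromatin was separate. Averaged over the antibodies within each treatment and number, the density was above the mean in 4 of 4 sets. The exact permutation p was then 0.125, the smallest that 4 sets can give (adjusted p = 0.188), and the same holds for the difference in density from the next 5 Mb and for width and score below, so no call stands with 4 sets.

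The next 5 Mb inward on the same arms gave a smaller difference. Terminal density was 1.19, 1.13, 1.01 and 1.10 times that of the next 5 Mb for TOP2A (vehicle replicates 1 and 2, then etoposide replicates 1 and 2). It was 1.15, 1.08, 1.04 and 1.12 times for TOP2B in the same order. The mean was 1.10 times (log2 0.14 ± 0.075 SD, n = 8, higher in 8 of 8; exact permutation p = 0.00781, adjusted p = 0.0312). For both etoposide libraries of replicate 1 the 95% exact interval of this ratio reached 1, from 0.924 to 1.11 for TOP2A and from 0.974 to 1.11 for TOP2B. These intervals cover counting error only.

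**Figure D1:**
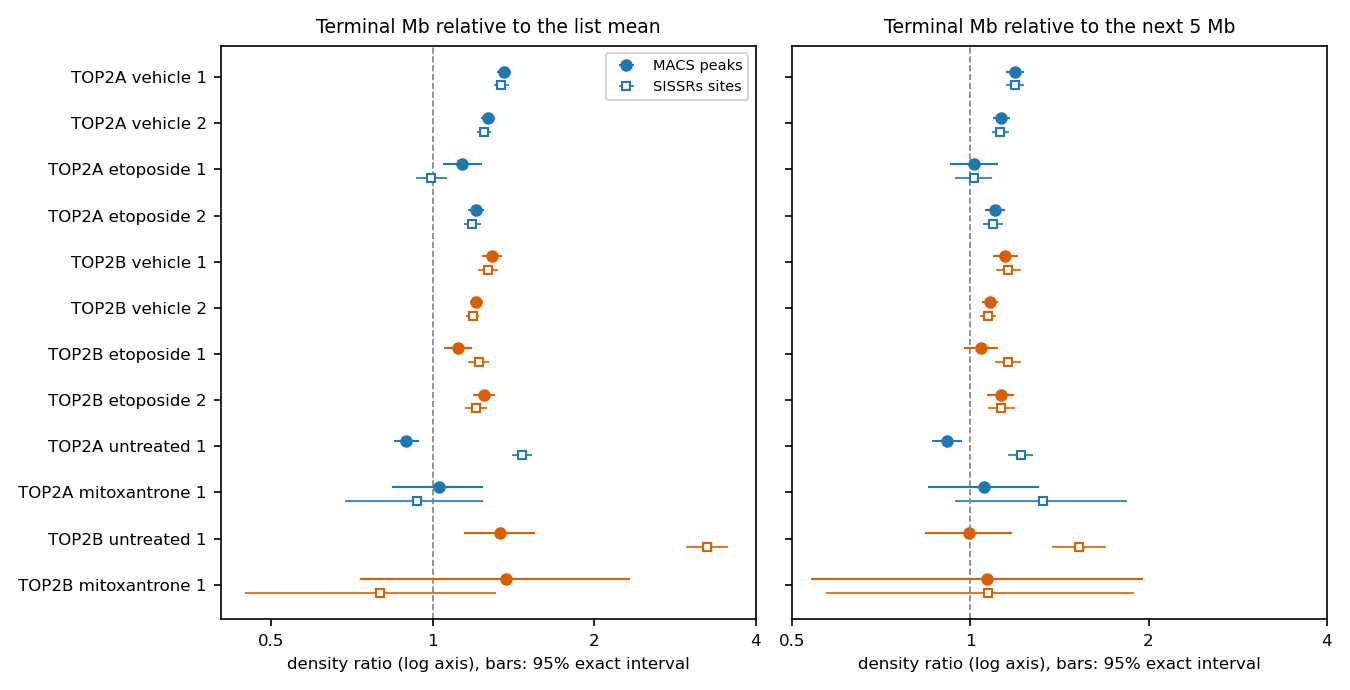
Density of the terminal megabases in each library, relative to the mean of its list (left) and to the next 5 Mb inward (right), on a log axis with 95% exact intervals. Filled circles are MACS peaks, open squares SISSRs sites, blue TOP2A and orange TOP2B. The 8 vehicle and etoposide lists of MACS peaks lie between 1.11 and 1.36 in the left panel, and the untreated lists give different values by peaks and by sites.

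This excess depended on which peaks of a list were counted. Each list was divided into 10 equal groups by the authors' score, from the weakest to the strongest peaks, after the data had been seen. Many peaks share a score (29.3% of TOP2B etoposide replicate 1 and 15.9% of TOP2A etoposide replicate 1 hold 1 value), and peaks of tied score were divided in the order of chromosome and position. In the weakest group terminal density was 1.30 to 2.24 times the mean of that group (median 1.90 over 8 libraries, above 1 in 8 of 8). In the strongest group it was 0.683 to 1.17 times (median 0.790, above 1 in 1 of 8). TOP2A vehicle replicate 1, for example, had 650 terminal peaks in its weakest group, at 2.24 times the mean, and 246 in its strongest, at 0.849 times. Of the 8 libraries only TOP2A etoposide replicate 1, the shortest list, had a ratio above 1 in its strongest group (1.17, 95% exact interval 0.891 to 1.52). With peaks of tied score shared evenly between groups, also chosen after seeing the data, the weakest group was at 1.07 to 2.24 times (median 1.89, above 1 in 8 of 8) and the strongest at 0.685 to 1.19 times (median 0.782, above 1 in 1 of 8). The change was largest for the weakest group of TOP2A etoposide replicate 1, from 1.30 (95% exact interval 0.999 to 1.66) to 1.07 times.

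**Figure D2:**
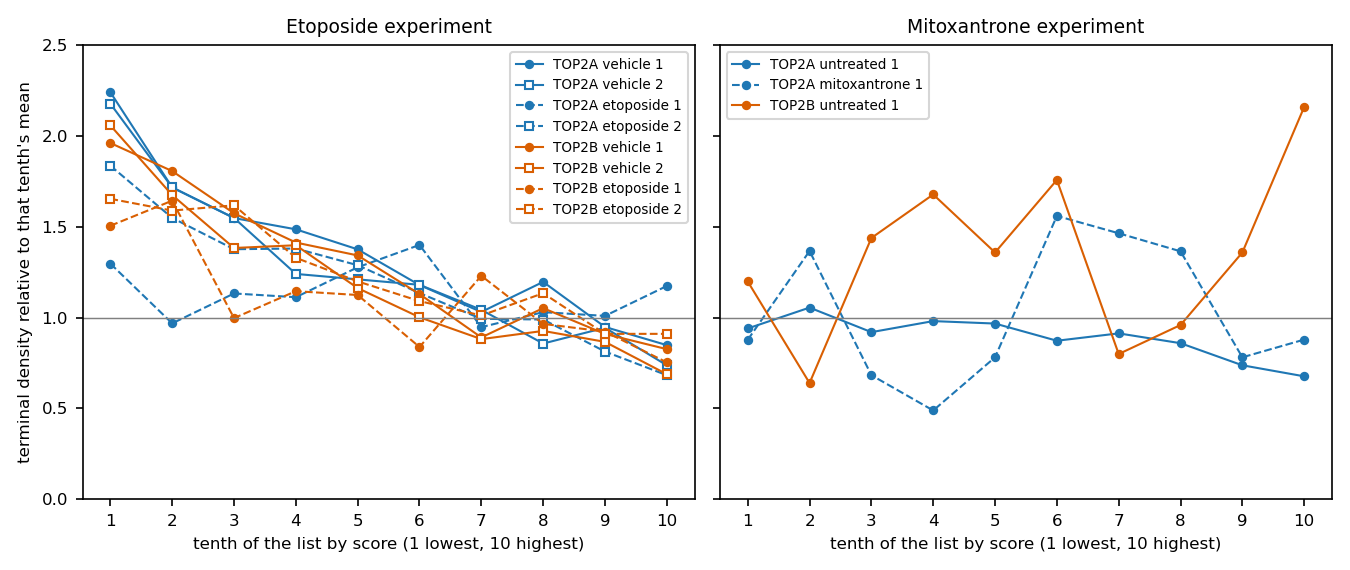
Terminal density in 10 equal groups of each list by score (x axis, weakest to strongest), relative to the mean of that group (y axis), for the etoposide (left) and mitoxantrone (right) experiments. Blue is TOP2A, orange TOP2B, dashed lines are drug-treated libraries and open squares replicate 2; TOP2B mitoxantrone, with 13 terminal peaks, is not drawn. On the left the median falls from 1.90 in the weakest group to 0.790 in the strongest.

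With all 8 lists reduced to their 35932 strongest peaks, the direction turned. Terminal density was then 0.707 to 0.975 times the mean in 7 lists and 1.14 times in TOP2A etoposide replicate 1, which is the list that set the length (mean log2 -0.19; exact permutation p = 0.0625, n = 8, adjusted p = 0.125). Against the next 5 Mb the mean log2 ratio of these peaks was -0.16 (exact permutation p = 0.0156, n = 8, adjusted p = 0.0469). With tied scores shared these means were -0.19 (exact permutation p = 0.0547, n = 8, adjusted p = 0.114) and -0.16 (exact permutation p = 0.0156, n = 8, adjusted p = 0.0469). At a score of at least 100 the density against the next 5 Mb was log2 0.11, with an adjusted p of 0.0686.

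Scores gave the same picture peak by peak. Placed within their own list on a scale of 0 to 100, terminal peaks averaged 42.0 and 41.0 for TOP2A with the vehicle, against 49.1 and 47.0 in the next 5 Mb. With etoposide the TOP2A values were 49.3 and 42.2 against 48.7 and 47.9. For TOP2B they were 41.8 and 40.7 with the vehicle against 48.5 and 46.0, and 44.6 and 44.0 with etoposide against 47.7 and 48.8. Terminal peaks ranked lower in 7 of 8 libraries, all but TOP2A etoposide replicate 1. The mean difference was -4.76 points (SD 2.49, n = 8; exact permutation p = 0.0156, adjusted p = 0.0469). Leaving out any 1 of the 7 libraries that ranked lower raised the adjusted p to 0.075, with mean differences of -5.00 to -4.44.

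SISSRs sites had fewer tags at arm ends in the same 7 libraries. The median site held 157 and 36 tags in the TOP2A vehicle libraries against 176 and 39 in the next 5 Mb, and 71 and 39 in the TOP2B vehicle libraries against 80 and 42. With etoposide it held 35 and 58 for TOP2A against 33 and 65, and 38 and 34 for TOP2B against 43 and 36. TOP2A etoposide replicate 1 was again the exception. Sites themselves were denser than the mean of their list in 7 of 8 libraries (1.19 to 1.34 times) and at 0.994 times in TOP2A etoposide replicate 1.

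Terminal peaks were slightly wider. Mean width was 126, 160, 114 and 150 bp for TOP2A (vehicle 1 and 2, etoposide 1 and 2) against 120, 154, 110 and 145 bp in the next 5 Mb. For TOP2B it was 135, 147, 118 and 112 bp against 129, 141, 115 and 109 bp. The ratio was 1.02 to 1.05 and averaged 1.04 (log2 0.053 ± 0.013 SD, n = 8, wider in 8 of 8; exact permutation p = 0.00781, adjusted p = 0.0312). The median width equalled the smallest width of the list, 98 to 128 bp, both at the ends and inward, so the difference lies in the minority of wider peaks. The share at that smallest width differed by -3.40 percentage points on average (ends minus next 5 Mb), for example 69.5% against 72.2% in TOP2A vehicle replicate 1. Peaks of 500 bp or more were rare, with 17 of 3936 terminal peaks (0.432%) against 18 of 16537 inward (0.109%) in that library.

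The widest terminal peak lay on 18p in 4 of 8 libraries. Near 108 kb from the start of chromosome 18 lay that of TOP2A etoposide replicate 1 (436 bp, 107882 to 108317), of TOP2B vehicle replicate 2 (1653 bp, 107686 to 109338) and of TOP2B etoposide replicate 1 (632 bp, 107903 to 108534). That of TOP2A etoposide replicate 2 began beside it (1082 bp, 110154 to 111235). The widest of TOP2A vehicle replicate 1 was on 4q (1007 bp, 190566689 to 190567695), and that of TOP2A vehicle replicate 2 on 17p (1133 bp, 252925 to 254057). For TOP2B the widest was on 7q in vehicle replicate 1 (919 bp, 158963971 to 158964889) and on 11p in etoposide replicate 2 (646 bp, 321842 to 322487). On the scale of 0 to 100 within a list these 8 peaks stood at 69.2, 25.5, 84.8, 14.6, 19.6, 26.3, 16.7 and 3.38 in the order named. Those of etoposide replicate 1 were thus above the middle of their list for both antibodies, and the other 6 below it.

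The excess was not a spike at the very end. In steps of distance the density relative to the list mean stayed between 1.08 and 1.31 from 1 to 2 Mb over the 8 libraries, between 1.07 and 1.20 from 2 to 3 Mb, and between 1.04 and 1.09 from 3 to 6 Mb. Just inside the 1 Mb threshold (50 kb) the TOP2A lists held 183 and 212 peaks (vehicle) and 38 and 149 (etoposide), and just outside it (50 kb) 193 and 207, and 33 and 179. The TOP2B lists held 94 and 226, and 54 and 83 inside, and 82 and 250, and 51 and 73 outside, so the density did not step at the threshold in one direction. Libraries differed in the outermost 250 kb. There the density was 1.49 and 1.42 times the mean in vehicle replicate 1 (TOP2A and TOP2B) and 1.16 and 1.12 in vehicle replicate 2. With etoposide it was 1.01 and 0.980 in replicate 1 and 1.29 and 1.25 in replicate 2. Relative to the other 750 kb these are ratios of 1.13, 1.14, 0.894, 0.906, 0.862, 0.847, 1.09 and 1.001. The 2 antibodies thus moved together within a treatment and replicate number, while replicates of the same treatment lay on opposite sides of 1 or, for TOP2B etoposide, at 1.001 and 0.847. The outermost peak or site of any list began at base 1532 on 17p, between 10053 and 11492 on 8 other p arms and between 60017 and 62932 on the remaining 9.

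**Figure D3:**
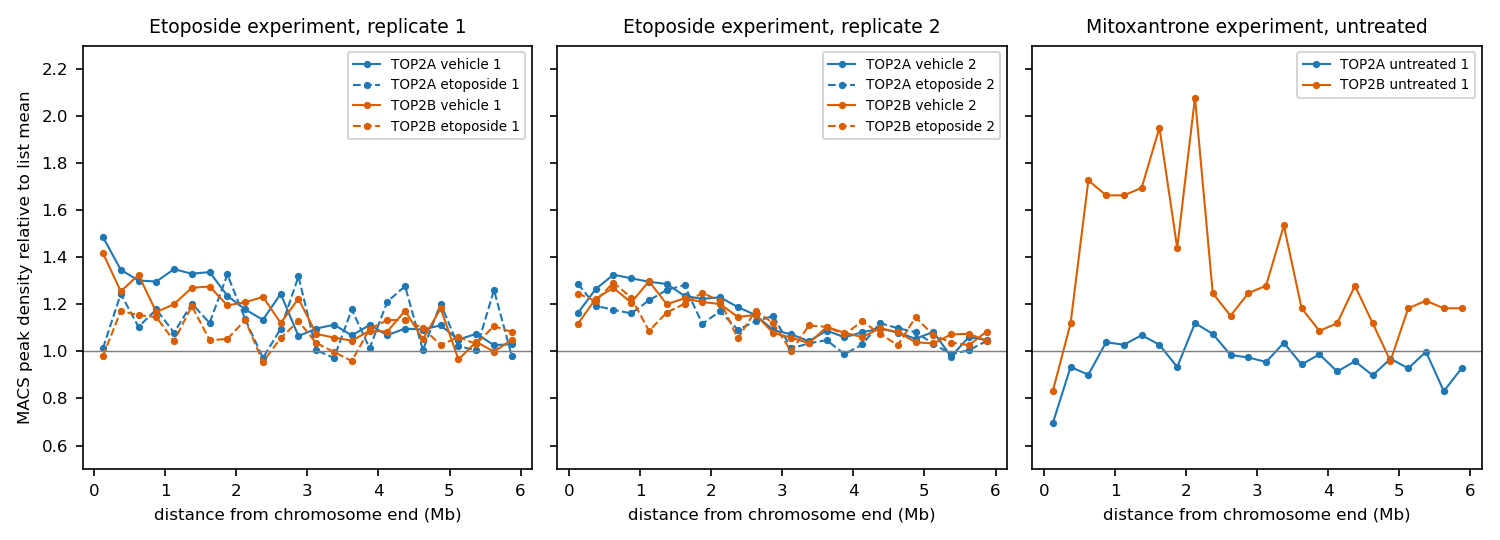
Density of MACS peaks in steps of 250 kb from the chromosome end (x axis, Mb) relative to the mean of the list, summed over the 41 ends. Solid lines are vehicle (left, middle) or untreated (right), dashed lines etoposide, blue TOP2A and orange TOP2B. The lines of the etoposide experiment lie between 1.04 and 1.09 on average beyond 3 Mb, and the outermost step ranges from 0.980 to 1.49.

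The 41 ends differed more from each other than the average excess. Over the 8 libraries 15 ends lay above the list mean in every library and 2 lay below it in every library. Against their own next 5 Mb, 5 ends were denser in all 8 (4q, 4p, 11p, 18p and 12p) and 1 was less dense in all 8 (1q). The shares of all 1 Mb bins that keep 1 direction in every library were not computed, so these counts are not read as a trait of arm ends. Ranks of the ends were similar between libraries to varying degrees, with Spearman's rho of 0.132 to 0.822 (median 0.489) over 28 pairs of libraries and 41 ends. These correlations describe lists that share 1 genome, and 0.206 to 0.822 was the range for replicates of a group. The mean over q ends was above that over p ends in each of the 8 libraries, at 1.16 to 1.39 against 1.05 to 1.31 times the list mean, a difference that was not tested. The q ends include 8q, at 2.43 to 3.26 times the list mean. The p windows begin at the first base of a chromosome, ahead of the first listed peak or site, while the q windows end at the furthest peak. The part of 8q and of the windows in this difference was not tested either.

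**Figure D4:**
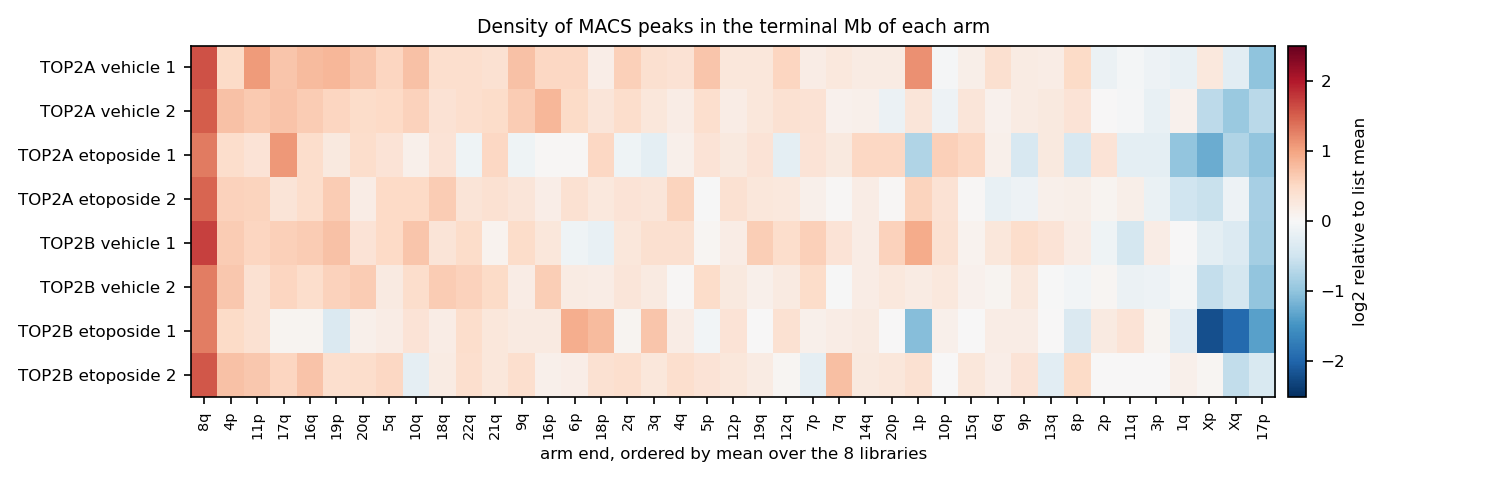
Density of MACS peaks in the terminal megabase of each of the 41 arm ends (columns, ordered by their mean) in the 8 libraries of the etoposide experiment (rows), as log2 of the ratio to the list mean. Red is above and blue below the mean. 8q is red in all 8 rows, and 17p and Xq are blue in all 8.

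The end of 8q (chromosome 8, 145301337 to 146301336) was the densest in every library of the etoposide experiment. It held 212 and 232 TOP2A peaks in the vehicle libraries and 29 and 175 after etoposide, and 123 and 236 TOP2B peaks in the vehicle libraries and 56 and 99 after etoposide. Relative to the mean this was 2.43 to 3.26 times (geometric mean 2.75). Its outermost genes in the RefSeq annotation of GRCh38.p14, given here and for other ends only as names since the lists are on hg19, include the zinc finger genes ZNF16, ZNF250 and ZNF7 and RPL8, which encodes a protein of the large ribosomal subunit. The density was not particular to the last megabase: the next 5 Mb of 8q stood at 2.89 times the mean, and the ratio between both was 0.797 to 1.11 (geometric mean 0.952). The inputs, which bear on copy number, are not analysed here, so its part in this value was not tested.

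In the untreated libraries 8q stood out by SISSRs sites and not by MACS peaks for TOP2A. The TOP2A untreated library had 204 sites there, at 5.79 times the mean, and only 23 MACS peaks, at 0.638 times. One of these was the widest terminal peak of that list (5160 bp, 145769937 to 145775096). The TOP2B untreated library had 98 of its 462 terminal sites on 8q, at 28.2 times the mean, and 7 of its 167 peaks, at 2.29 times. Without 8q its sites at the other 40 ends were at 2.62 times the mean, against 3.24 times with it.

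The ends of 4p, 11p, 17q and 16q followed 8q, with geometric means of 1.51, 1.49, 1.48 and 1.43 times the list mean, each above it in 8 of 8 libraries. On 4p the ratio was 1.35 to 1.67, and it was 1.08 to 1.62 times the next 5 Mb. On 11p it was 2.08 and 1.57 (vehicle) and 1.27 and 1.46 (etoposide) for TOP2A, and 1.46 and 1.31 (vehicle) and 1.31 and 1.60 (etoposide) for TOP2B. On 17q, where METRNL and the tubulin folding cofactor gene TBCD lie outermost, the ratio ranged from 1.04 (TOP2B etoposide replicate 1) to 2.11 (TOP2A etoposide replicate 1). On 16q, whose outermost genes include PRDM7, the neuronal tubulin gene TUBB3 and the melanocortin receptor gene MC1R, it ranged from 1.04 to 1.73.

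The end of 4q differed most from its own arm. Outermost there is a long array of repeats that each carry DUX4, with FRG2 and FRG1 next inward. DUX4 is a transcription factor gene whose release from silencing causes a muscular dystrophy. The 4q end held 91, 93, 13 and 94 TOP2A peaks and 50, 99, 26 and 45 TOP2B peaks (vehicle 1 and 2, etoposide 1 and 2). These are only 1.02 to 1.48 times the list mean, but the next 5 Mb of 4q was sparse, at 0.537 times the mean. The ratio of the end to the next 5 Mb was 2.88, 2.31, 1.71 and 2.73 for TOP2A and 2.12, 1.98, 2.00 and 2.68 for TOP2B in the same order (geometric mean 2.27). All 8 libraries of the etoposide experiment showed it, with either antibody and with or without etoposide. The TOP2A untreated library did not show it by peaks, with 14 on 4q at 0.388 times the list mean and 0.959 times the next 5 Mb. Its 63 SISSRs sites there were at 1.79 times the mean. TOP2B untreated had 3 peaks, at 3.0 times the next 5 Mb. The other 3 ends with a like direction in all 8 libraries of the etoposide experiment besides 4p gave geometric means of 1.29 on 11p, 1.20 on 18p and 1.10 on 12p.

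The lowest ends were 17p, Xq, Xp, 1q and 3p. The end of 17p had 0.392 to 0.770 times the mean (geometric mean 0.543), and its next 5 Mb was nearly as sparse at 0.571 times. Xq and Xp carry the pseudoautosomal regions shared with the Y chromosome, with IL9R, VAMP7 and SPRY3 outermost on Xq and PLCXD1, GTPBP6, PPP2R3B and the growth gene SHOX on Xp. Xq had 0.261 to 0.912 times the mean (geometric mean 0.627) and Xp 0.218 to 1.20 times (0.639). Both resembled the next 5 Mb of the X chromosome, at 0.608 and 0.612 times the mean.

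On 1q, with PGBD2 and ZNF692 outermost and olfactory receptor genes (the OR2T family) further inward, the density was below that of the next 5 Mb in all 8 libraries. The ratio was 0.801, 0.946, 0.400 and 0.618 for TOP2A and 0.955, 0.820, 0.731 and 0.959 for TOP2B (vehicle 1 and 2, etoposide 1 and 2). Both TOP2A etoposide values lay below both vehicle values, while the TOP2B values overlapped. On 3p, whose outermost genes CHL1 and CNTN6 encode adhesion proteins of neurons, the density was 0.845 to 1.14 times the mean.

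Some ends changed strongly with 1 replicate only. On 1p, the vehicle libraries held 156 and 100 TOP2A peaks against 7 and 94 after etoposide, and 72 and 112 TOP2B peaks against 11 and 44. Relative to the list mean, etoposide against vehicle was a log2 difference of -1.90 in replicate 1 and 0.27 in replicate 2 for TOP2A, and -1.99 and 0.18 for TOP2B. Xp behaved alike, with 85 and 52 vehicle and 5 and 43 etoposide peaks for TOP2A (log2 -1.51 and 0.082) and 32 and 64 vehicle and 5 and 35 etoposide peaks for TOP2B (-1.96 and 0.65). The 2 antibodies therefore gave the same pattern by replicate number, and neither end separated vehicle from etoposide in both replicates.

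Over all ends together, no change with etoposide was shown. Relative to the list mean the terminal density averaged log2 0.23 ± 0.075 (SD, n = 4) with etoposide and 0.35 ± 0.071 (SD, n = 4) with the vehicle, a difference of -0.12 (two-sided exact permutation p = 0.0857, adjusted p = 0.147). Between libraries of the same antibody and number it was -0.26 and -0.071 for TOP2A and -0.21 and 0.048 for TOP2B (replicates 1 and 2), lower in 3 of 4. Against the next 5 Mb the difference was -0.087 (exact permutation p = 0.114, n = 4 and 4, adjusted p = 0.171). The 2 etoposide lists of replicate 1, with the lowest values, were also the 2 shortest lists. With equal-length lists the sign turned, to 0.19 (exact permutation p = 0.257, n = 4 and 4, adjusted p = 0.386) against the list mean. It also turned against the next 5 Mb, to 0.074 (exact permutation p = 0.457, n = 4 and 4, adjusted p = 0.610). Equal length kept all peaks of TOP2A etoposide replicate 1 and dropped the weaker peaks of the other lists. For each antibody and number it dropped more from the vehicle list. Weaker peaks were the denser ones at the ends, so equal-length lists cannot tell a change with the drug from the cut itself.

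The excess width at the ends was smaller with etoposide in all 4 such pairs, with log2 differences of -0.0156 and -0.0106 for TOP2A and -0.0289 and -0.0219 for TOP2B. Its mean was log2 0.044 ± 0.011 (SD, n = 4) with etoposide and 0.063 ± 0.0065 (SD, n = 4) with the vehicle. The exact permutation p was 0.0286, the smallest that 4 against 4 can give, and did not hold after adjustment (adjusted p = 0.0686). Among peaks with a score of at least 100 the difference was log2 -0.00027 (exact permutation p = 1, n = 4 and 4). The score difference was -3.28 ± 2.82 points with etoposide and -6.25 ± 0.778 with the vehicle (SD, n = 4 each; exact permutation p = 0.0571, adjusted p = 0.114). Between libraries of the same antibody and number the etoposide value was higher by 7.66 and 0.236 points for TOP2A and by 3.53 and 0.469 points for TOP2B (replicates 1 and 2). The difference of 2.97 points between the means was 1.68 points without TOP2A etoposide replicate 1 (exact permutation p = 0.114, n = 3 and 4, adjusted p = 0.171). Averaged over the antibodies within each treatment and number, 2 etoposide sets stood against 2 vehicle sets. The exact permutation p was then 0.333 for width, for score and for density against the list mean, and 0.667 for density against the next 5 Mb. Such 2 against 2 sets cannot give a p below 0.333, and neither can 2 against 2 libraries within an antibody, so these tests cannot reach the threshold.

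End by end, both TOP2A etoposide libraries were less dense than both vehicle libraries at 15 of 41 ends and denser at 2. Of all 1 Mb bins of the genome 16.7% and 15.9% did so. For TOP2B the counts were 9 lower and 4 higher of 41, against 16.3% and 18.1% of all bins. These counts were not tested against the background. Of the ends, 10q, 22q and 16p were lower without overlap for both antibodies (3 of 41, against 2.95% of bins) and 0 of 41 were higher (3.26% of bins). With all 4 etoposide libraries set against all 4 vehicle libraries, 1 end (16p) was lower without overlap and 0 were higher, against 1.59% and 1.91% of bins. On 16p, which carries the alpha globin genes of red cells, TOP2A stood at 1.43 and 1.78 times the mean (vehicle) and 1.01 and 1.12 (etoposide), and TOP2B at 1.22 and 1.52 (vehicle) and 1.17 and 1.10 (etoposide). On 10q the values were 1.65 and 1.49 against 1.10 and 1.42 for TOP2A, and 1.61 and 1.36 against 1.26 and 0.859 for TOP2B.

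**Figure D5:**
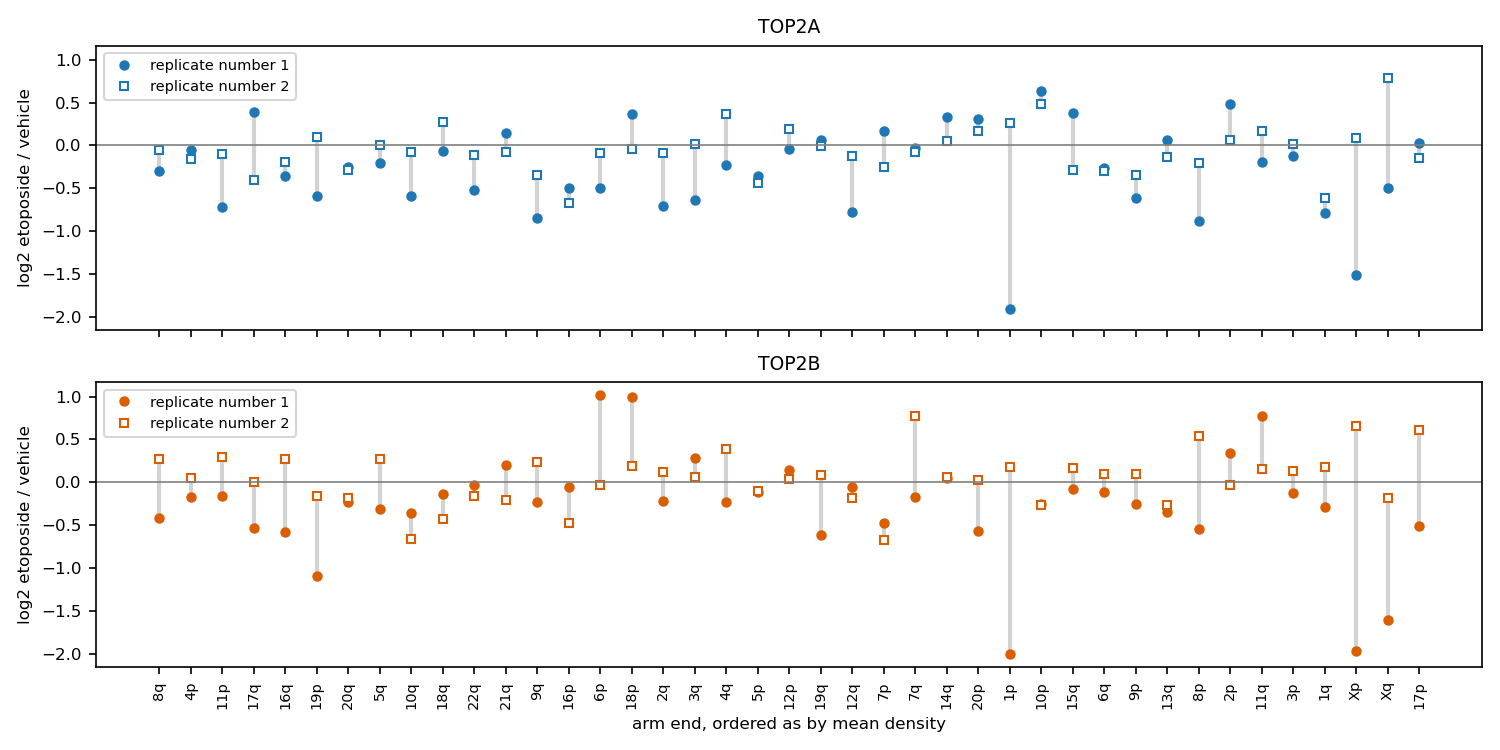
Log2 ratio of etoposide to vehicle density, each relative to its list mean, at the 41 arm ends (x axis, in the order of mean density) for TOP2A (top) and TOP2B (bottom). Filled circles are replicate number 1, open squares replicate number 2, and grey bars join both. The values of 1p and Xp lie below -1.5 in replicate 1 and above 0 in replicate 2 for both antibodies.

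A fit across all 1 Mb bins of the genome (limma, Benjamini-Hochberg adjustment over all bins) called no bin, terminal or not, at an adjusted p under 0.05. It tested 2885 bins for TOP2A and 2884 for TOP2B and called 0 (0%) for each. At an unadjusted p under 0.05 it passed 99 bins for TOP2A (3.43%), 4 of them among the 41 ends, and 129 for TOP2B (4.47%), 5 of them ends. For TOP2A these ends were 8p, 9q and 16p (3 lower with etoposide, 1.7% of bins) and 10p (1 higher, 1.73% of bins). For TOP2B they were 7p, 10q, 19p and Xq (4 lower, 1.91% of bins) and 18p (1 higher, 2.57% of bins). The smallest adjusted p of any end by limma was 0.940 for TOP2A and 0.946 for TOP2B. With both antibodies in 1 fit 0 bins (0%) were called and 143 (4.96%) passed unadjusted, with 4 ends among them: 10q, 16p and 19p (3 lower, 2.15% of bins) and 18p (1 higher, 2.81% of bins). The change was below 0 at 27 of 41 ends for TOP2A (49.3% of all bins) and at 24 of 41 for TOP2B (50.3%), with medians of -0.087 and -0.046 against 0.0041 and -0.0027 over all bins (log2). In the fit of both antibodies it was below 0 at 29 of 41 ends (50.4% of all bins). With SISSRs sites the change was below 0 at 33 of 41 ends for TOP2A (52.2% of bins) and 17 of 41 for TOP2B (51.2%). At a score of at least 100 it was below 0 at 28 of 41 for TOP2A (46.9%) and 28 of 41 for TOP2B (47.3%).

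The call of 0 bins within an antibody rested mostly on etoposide replicate 2. Without it, limma called 553 bins for TOP2A, with 7 of 41 ends lower (10.6% of bins) and 1 higher (8.53% of bins). For TOP2B it called 127 bins, with 4 of 41 ends lower (3.05% of bins) and 2 higher (1.35% of bins). For TOP2A the 8 ends called are a share near that of all bins. There the 1 remaining etoposide library is assumed to vary like the vehicle libraries. Without TOP2B etoposide replicate 1, 4 bins were called and none was an end. The difference between the antibodies in their etoposide change was called at 0 of 2885 bins, with 104 passing unadjusted, 2 of them ends.

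TOP2A and TOP2B were not shown to differ at arm ends. Relative to the list mean the terminal density averaged log2 0.31 ± 0.11 (SD, n = 4) for TOP2A and 0.28 ± 0.091 (SD, n = 4) for TOP2B (difference 0.031, exact permutation p = 0.629, adjusted p = 0.754). Against the next 5 Mb the difference was 0.012 (exact permutation p = 0.857, n = 4 and 4, adjusted p = 0.914). Width and score differed by log2 0.0098 (exact permutation p = 0.343, n = 4 and 4) and 0.42 points (exact permutation p = 0.914, n = 4 and 4), with adjusted p of 0.457 and 0.914. By limma 0 of 2885 bins (0%) were called between the antibodies, and 100 (3.47%) passed unadjusted, with 9p the only end among them (log2 -0.32, SE 0.15, adjusted p = 0.972). It was 1 end lower for TOP2A (1.77% of bins) and 0 higher (1.7% of bins). The difference was below 0 at 10 of 41 ends (49.6% of all bins). This count moved to 20 with SISSRs sites (51.2% of bins), 15 at a score of at least 100 (48.6%) and 14 to 19 with 1 library left out. No end separated the 4 TOP2A from the 4 TOP2B libraries (1.18% of bins lower and 1.21% higher).

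In the mitoxantrone experiment the 2 callers gave different pictures. Terminal MACS peaks of the TOP2A untreated library (1319) were below the mean, at 0.892 times (95% exact interval 0.845 to 0.942), and at 0.912 times the next 5 Mb. Its 2120 terminal SISSRs sites were above, at 1.47 and 1.22 times. For TOP2B untreated the 167 peaks were at 1.34 times the mean (1.14 to 1.55) and 0.996 times the next 5 Mb, and the 462 sites at 3.24 and 1.53 times. Of the terminal peaks 71.2% (TOP2A) and 50.3% (TOP2B) held a site, against 92.6% to 99.9% in the etoposide experiment and 20.0% (TOP2A) and 0% (TOP2B) with mitoxantrone. Peaks were wide here, with terminal means of 606 and 615 bp against 556 and 539 bp in the next 5 Mb.

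With mitoxantrone the TOP2A library had 105 terminal peaks, at 1.03 times the mean (0.839 to 1.24) and 1.06 times the next 5 Mb, and the TOP2B library had 13, at 1.37 times (0.733 to 2.33) and 1.07 times. Their 47 and 15 sites stood at 0.933 and 0.797 times the mean. For both mitoxantrone libraries the 95% exact intervals of peaks and of sites against the list mean include 1, so no excess or deficit at the ends was detectable at this depth with the drug. Untreated and treated libraries of the same antibody cannot be set against each other beyond these values. In the outermost 250 kb all 4 lists were sparser than in the other 750 kb, at 0.726 and 0.795 times for TOP2A (untreated and mitoxantrone) and 0.553 and 0.545 times for TOP2B, the last from 2 peaks. The score pattern of the etoposide experiment was not shared by TOP2B untreated, where the strongest group was at 2.16 times the mean (27 peaks, 95% exact interval 1.43 to 3.12) and the weakest at 1.20 times. TOP2A untreated had no excess in its weakest group, at 0.940 times (0.791 to 1.11), and its strongest was at 0.677 times (0.551 to 0.822). TOP2A mitoxantrone was at 0.878 times in its weakest group and 0.879 times in its strongest.

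Single regions rarely recurred. Merged over the 12 lists, terminal MACS peaks formed 20547 regions, of which 18463 (89.9%) came from 1 library, 46 (0.224%) from 4 or more and 2 from 7, the highest number. In the next 5 Mb 91.2% of 94759 regions came from 1 library and 157 (0.166%) from 4 or more. Overlap of replicates was likewise 3.99% at the ends against 3.27% inward (TOP2A vehicle), 2.36% against 2.10% (TOP2A etoposide), 4.80% against 3.71% (TOP2B vehicle) and 0.953% against 1.13% (TOP2B etoposide). Denser and wider peaks meet more often, and the part of density and width in these shares was not tested. Terminal peaks with the same start base in 2 lists numbered 0 for the 4 replicate pairs, and up to 9 for pairs of the same replicate number.

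Of the 10 most recurrent terminal regions 5 lay on 8q and 2 on 4q, with 1 each on 16p, 18p and 4p. The 2 regions found in 7 libraries were 145728737 to 145730946 on 8q, with peaks in all 4 vehicle libraries, TOP2A etoposide replicate 2 and both untreated libraries, and 190154961 to 190156532 on 4q, with peaks in all 4 vehicle libraries and in every etoposide library but TOP2A replicate 1. The 4q region had its widest peak in TOP2A vehicle replicate 1 (958 bp). Its peaks ranked low, from 0.351 to 56.7 on the scale of 0 to 100 within a list (mean 21.8). A further 4q region 101 kb from the end, 190942570 to 190943818, had a peak in all 4 vehicle libraries and in TOP2A etoposide replicate 1, at ranks of 2.06 to 13.1. The 18p region at 107686 to 109338 had peaks in 5 libraries, namely TOP2A vehicle 1 and 2, TOP2A etoposide 1, TOP2B vehicle 2 and TOP2B etoposide 1. The 16p region, at 425704 to 427685, had peaks in 6 libraries, and the 4p region, at 861403 to 862923, in 5. No region of the terminal megabases had a peak in all 8 libraries of the etoposide experiment. A region on 4p, 42384 to 42792, chosen after its values were seen, had a peak in all 4 etoposide libraries and in 0 of the 4 vehicle libraries, at ranks of at most 47.3. It was picked from 20547 terminal regions. The share of regions with this pattern or its reverse, at the ends or inward, was not computed, so it is not read as an effect of etoposide.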

How the data were processed

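The labels describe 50 bp paired-end chromatin immunoprecipitation reads from KG-1, and hg19, MACS 1.4, Bowtie2 2.2.5 and bedtools 2.26.0 appear in the submitters' processing notes. The authors deposited 1 MACS list and 1 SISSRs list per library. The deposited MACS score starts at 50 and served to rank or filter peaks inside their own list only. Without a header, the columns of the deposited SISSRs lists were read from their values as the tag count of a site, its fold and its p-value. Sources used here give neither caller settings, the SISSRs version nor any use of input. Read totals are not given either, and the tags in SISSRs sites summed to 97993 to 47610693 per library, which moves with the number of sites and is not the depth.

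Density was peaks per Mb, set against the 3035 Mb of chromosomes 1 to 22 and X or against the next 5 Mb inward (205 Mb). Libraries were compared by two-sided exact permutation tests (sign flips for 8 libraries, relabelling for 4 against 4), adjusted by Benjamini-Hochberg over 12 tests. For an alternative, its p took the place of the main p of that test alone among the 12. Bins of 1 Mb (the last one of a chromosome ending at its end) were fitted with limma 3.58.1 (trend, robust; R 4.3.3) on log2 shares (each list scaled to 10000 peaks; 0.5 peaks added as pseudocount), keeping bins that average 5 peaks or more. Intervals are 95% exact binomial. The remaining computation ran in Python 3.11.15 with scipy 1.17.1, pandas 2.3.3, matplotlib 3.10.9 and numpy 2.4.6. The density and bin steps were tested on simulated data. Alternatives were a score of at least 100, SISSRs sites, bases covered, windows of 500 kb and 2 Mb, leaving out the outermost 100 kb or chromosomes X and 8, other means, each library left out, replicate blocks and, for bins, other sizes, pseudocounts and filters. Equal-length lists, the sharing of tied scores, the averaging of both antibodies and crossed replicate numbers were added after seeing the data. Named ends are the 5 densest and 5 sparsest by mean log2 density, plus any called, and named regions the 10 found in most libraries; other ends named were chosen after their values were seen. The members, lists and rules were chosen with earlier results of these data known. No sequence and no gene assignment is given, because the reference used is GRCh38.p14.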

Additional observations from a re-analysis of the deposited data

How the results depend on the processing

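Of 274 alternative values for tested results and counts, 231 kept direction and call. With equal-length lists, added after seeing the data, terminal density turned to -0.19 (list mean) and -0.16 (next 5 Mb), its etoposide change to 0.19 and 0.074, and the difference between antibodies to -0.022 and -0.034. With tied scores shared these were -0.19, -0.16, 0.18, 0.069, -0.020 and -0.038. With TOP2A and TOP2B averaged within a treatment and number, also added after seeing the data, density was 0.29 and 0.14, width 0.053 and score -4.76 points, each at an exact permutation p of 0.125, the smallest that 4 sets can give. At a score of at least 100 the density against the next 5 Mb was 0.11 (adjusted p = 0.0686), and the antibody difference in width -0.0039. Leaving out single libraries gave 0.27 to 0.31 and 0.12 to 0.16 for density, -5.53 to -4.44 points for score, and -0.013 to 0.073, -0.024 to 0.053 and -1.31 to 1.25 points for the antibody differences in density (list mean, next 5 Mb) and score. The antibody differences also turned with SISSRs sites (-0.042 and -0.033), within etoposide (-0.0095 and -0.035), within the vehicle (-0.56 points) and with a window of 500 kb (-0.024 points). Measured as the share of peaks at the smallest width, the etoposide change was -1.02 points, which is toward wider terminal peaks and opposite to the mean width. The cause of these turns was not tested.

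Called bins ranged from 0 to 553 (TOP2A) and 0 to 127 (TOP2B) with 1 library left out, and were 1 for TOP2A with a pseudocount of 2 peaks or with no filter. With the replicate block the etoposide change was -0.12 (exact permutation p = 0.25; list mean), -0.087, -0.019 (width) and 2.97 points (score), the antibody differences were 0.031, 0.012, 0.0098 and 0.42 points, and 0 bins were called, as also with crossed numbers. Nothing in the labels says that the numbers pair samples. Deviations of same-numbered libraries over the 41 ends correlated at -0.42 (TOP2A) and -0.40 (TOP2B) between vehicle and etoposide, and at 0.42 (vehicle) and 0.34 (etoposide) between TOP2A and TOP2B.

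In the mitoxantrone experiment 21 of 62 values were counted as moved, not all of them beyond counting error. For TOP2A untreated, relative to the mean and to the next 5 Mb, they were 0.680 and 0.835 at a score of at least 100, 1.47 and 1.22 with SISSRs sites, 1.06 and 0.994 in bases covered, 0.815 and 0.825 in 500 kb, and 0.954 and 0.977 in 2 Mb. For TOP2B untreated they were 1.11 and 1.67 at a score of at least 100, 3.24 and 1.53 with sites, 1.66 in bases covered (mean), 0.976 and 0.701 in 500 kb, and 1.25 in 2 Mb (next 5 Mb). With mitoxantrone TOP2A gave 0.627 at a score of at least 100 (mean) and 1.33 with sites (next 5 Mb), and TOP2B 2.14 as the median over ends. The exact interval of this 1.33 was 0.941 to 1.84 and includes the 1.06 of MACS peaks. A score of at least 100 was held by only 1.20% of 167 terminal peaks of TOP2B untreated. For TOP2A mitoxantrone it was 0.952% of 105. The TOP2B mitoxantrone list had no peak at 30 of 41 ends. Short lists limit these values, and read depth is unknown.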
